A study of Mus musculus with 15 samples.

Results

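Abhd6, Greb1, Prr15l, Selenbp1, Selenbp2, Pih1d1 and Mapk9 are 7 of the 16207 mouse gene symbols on the arrays, and were picked as genes in which 1 or a few exon probesets answered dexamethasone differently from the rest of the gene. They carried 99 probesets that the platform annotation assigned to a single gene, which were 11 for Abhd6, 39 for Greb1, 6 each for Prr15l, Selenbp1 and Selenbp2, 12 for Pih1d1 and 19 for Mapk9. The changes against 0 h chose these genes, so every change of these genes against 0 h is given as a description without a test.

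Total RNA of 2 mouse cell lines was hybridised to 15 exon arrays. Line 3134 was obtained by transformation of C127 cells, which came from a mammary tumour of an RIII mouse. The AtT-20 line consists of corticotrophs, the pituitary cells that make ACTH. Both lines were kept in charcoal-dextran-treated serum for 48 h and were then given 100 nM dexamethasone, a synthetic glucocorticoid, for 2, 4 or 8 h, or were taken at 0 h. There were 2 arrays for each time in each line, but only 1 for the 8 h time of AtT-20. The labels call the 0 h cells both untreated and vehicle treated, no array held cells kept for 2 to 8 h without hormone, and whether replicates came from separate cultures is not stated. The p-values therefore rest on a spread between arrays that may be technical. In AtT-20 at 0 h, 6 of 6 corticotroph markers stood above the log2 level of 6.59 that served as the limit of a bright signal (the 40th percentile of all values), against 0 of 6 in 3134. In 3134, 5 of 5 mesenchymal markers but 2 of 6 epithelial markers stood above it. All values are quantile normalized log2 signals, and the number of arrays limits their precision.

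The glucocorticoid receptor is a transcription factor that enters the nucleus after it binds hormone and acts on many genes through DNA sites near or far from their promoters. An exon array measures short stretches of a transcript separately, so a change of the whole gene moves most of its probesets together, while another promoter, another splice form or a signal from a different transcript can move a few. Probesets differ in brightness and in background, so levels of different probesets are not compared with each other here. A gene's level is the median over its probesets, and a difference of 1 on the log2 scale is a doubling of signal.

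A single probeset was higher at every time in Pih1d1 in 3134 and in Mapk9 in AtT-20, while in the other 5 genes the number depended on the time. A probeset was counted as higher at a time when its mean was at least 1 log2 above 0 h and every treated array was above every 0 h array. In 3134, 18 of 99 probesets were higher at 2 h, 41 at 4 h and 36 at 8 h, and 0 were lower at any of these times. Over all 207232 probesets, 1.15% were higher at 2 h, 1.5% at 4 h and 1.59% at 8 h, and 0.691%, 1.08% and 1.28% were lower. At 2, 4 and 8 h the higher probesets were 4, 8 and 3 of 11 in Abhd6, 9, 20 and 20 of 39 in Greb1, and 2, 4 and 4 of 6 in Prr15l. They were 2, 5 and 5 of 6 in Selenbp1 and 0, 3 and 3 of 6 in Selenbp2. In Pih1d1 the count was 1 of 12 at each time, and in Mapk9 it was 0 of 19 in 3134 and 1 of 19 at each time in AtT-20. Since the choice of genes used these changes, the shares say nothing beyond the choice.

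**Figure D1:**
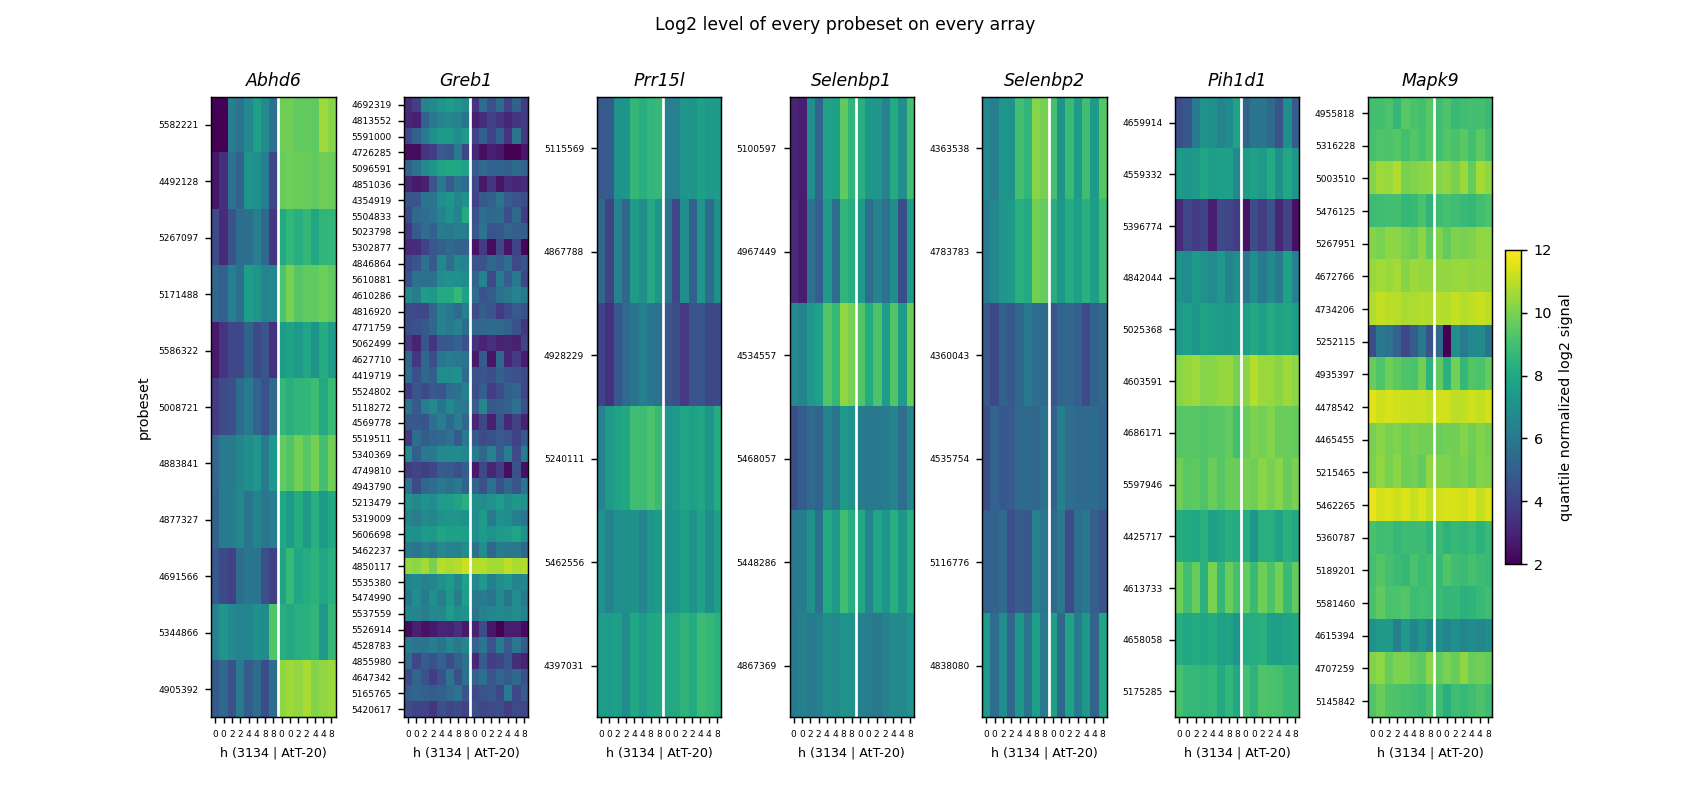
Quantile normalized log2 signal of all 99 probesets (rows, ordered by mean change in 3134) on all 15 arrays (columns, labelled by hours of dexamethasone, with 3134 left of the white line and AtT-20 right of it). Neighbouring columns of the same hour are run 1 and run 2. Most rows of Abhd6 are dark in 3134 and bright in AtT-20. The rows of Mapk9 are bright throughout except 5252115 and 4615394, the latter between 6.32 and 7.39.

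In AtT-20 fewer of these probesets moved. At 2 h 2 were higher and 2 lower, at 4 h 3 were higher and 0 lower, and on the single array of 8 h 12 were higher and 10 lower. The shares over all probesets were 0.874%, 1.02% and 2.68% higher and 0.835%, 0.817% and 2.29% lower. With 1 array the condition on overlap is easier to meet, and the 8 h counts were larger over all probesets as well.

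**Figure D2:**
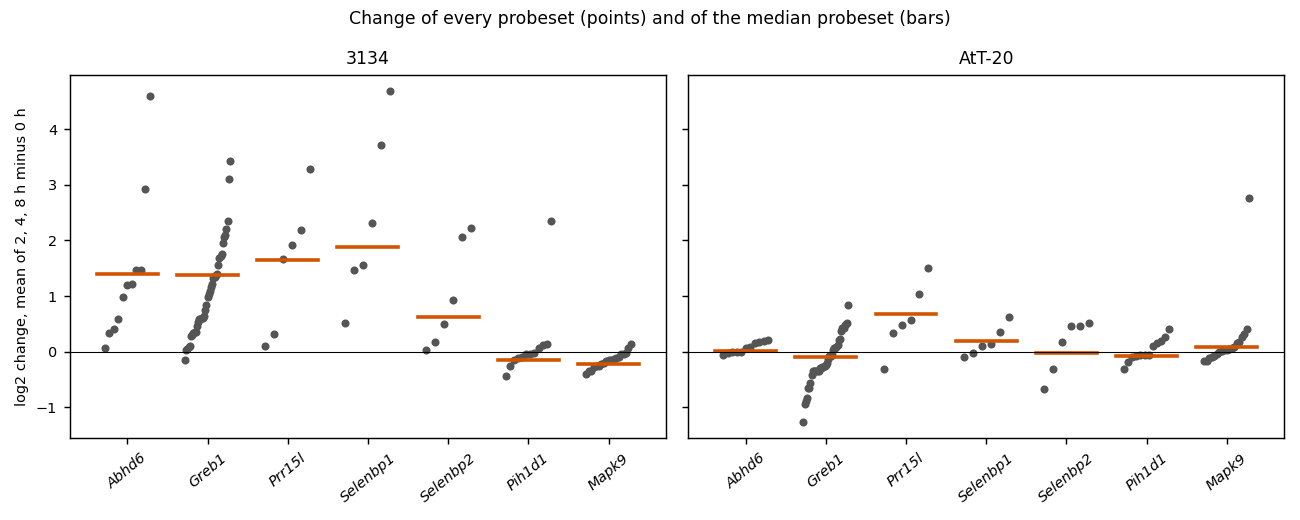
Log2 change of every probeset (points), as the mean of 2, 4 and 8 h minus 0 h, and of the gene's median probeset (bars), in 3134 (left) and AtT-20 (right). In 3134 the points of 5 genes spread upward over a wide range, while single points stand apart for Pih1d1 in 3134 and for Mapk9 in AtT-20.

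For each gene the probeset farthest from the gene's median probeset, by the mean change over the 3 times in the line where that distance was largest, is described array by array and called its lead probeset. In 3134, 9 of 99 probesets lay at least 1 log2 above their gene's median change in both runs and 7 lay as far below, against 0.102% and 0.119% of the 205436 probesets of genes with at least 3. In AtT-20 the counts were 1 and 0, against 0.111% and 0.129%.

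**Figure D3:**
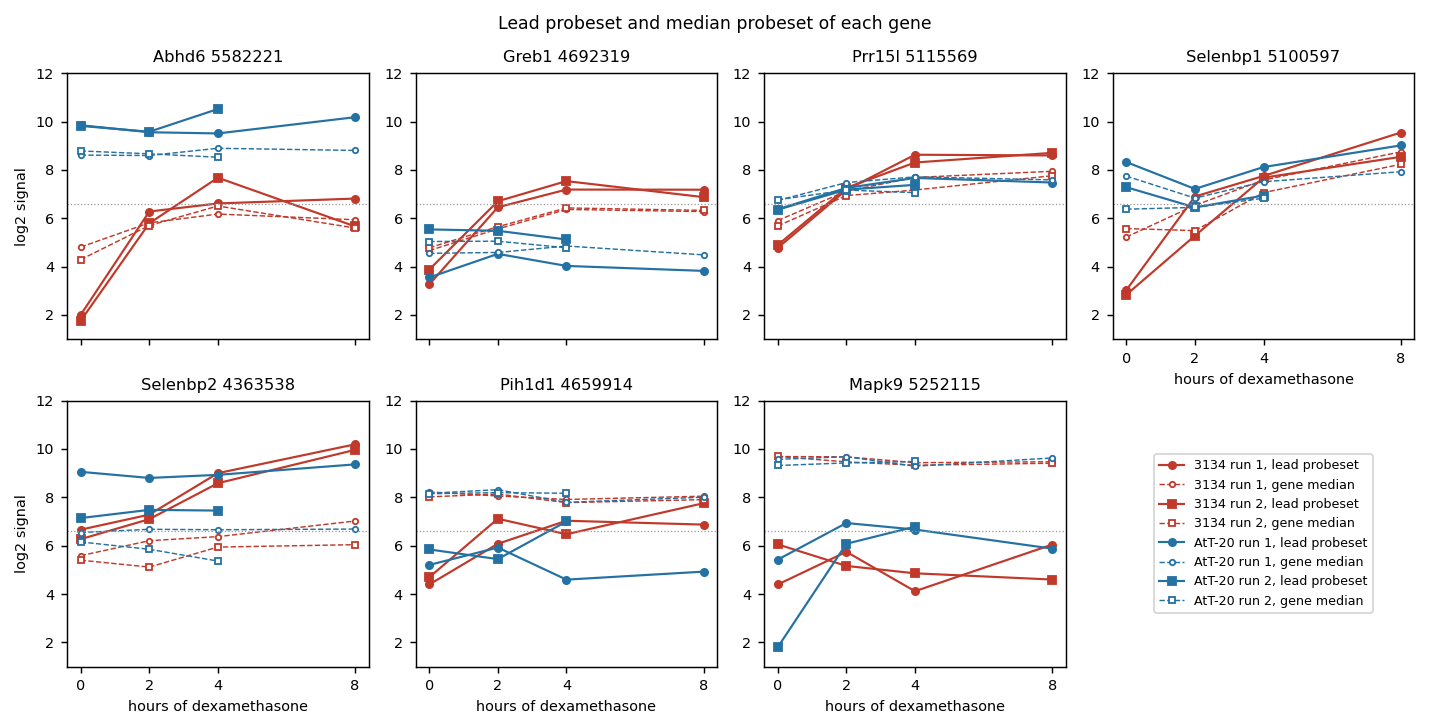
Log2 signal of the lead probeset (filled symbols, solid lines) and of the gene's median probeset (open symbols, dashed lines) against hours of dexamethasone, by line (red 3134, blue AtT-20) and run (circles 1, squares 2). The dotted line marks log2 6.59. The lead of Abhd6 climbs from 2.01 and 1.76 at 0 h in 3134 while its AtT-20 lines stay level, and the lead of Pih1d1 climbs in 3134 while its gene's median stays level.

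Abhd6 encodes a serine hydrolase that splits monoacylglycerols, among them the endocannabinoid 2-arachidonoylglycerol. In 3134 its lead probeset 5582221 stood at 2.01 and 1.76 at 0 h, at 6.28 and 5.79 at 2 h, at 6.61 and 7.68 at 4 h, and at 6.82 and 5.67 at 8 h (run 1 and run 2 each time). All 6 treated arrays were above both 0 h arrays. The mean change over the 3 times was 4.59, which was 3.18 above that of the median probeset (3.40 in run 1 and 2.97 in run 2). The next probeset, 4492128, was 1.52 above the median probeset, and the mean changes of all 11 ran from 0.07 to 4.59. Only 1 of the 11 probesets was bright at 0 h in 3134, so most of these changes start from dim signals.

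In AtT-20 Abhd6 was bright without hormone and showed no probeset higher or lower at any time. Its median level was 8.70 ± 0.12 (SD, n = 2) at 0 h, 8.63 ± 0.05 at 2 h and 8.71 ± 0.26 at 4 h, and 8.81 on the 8 h array. The corresponding levels in 3134 were 4.55 ± 0.37, 5.76 ± 0.08, 6.34 ± 0.24 and 5.77 ± 0.24, so even the highest group of 3134 stayed below every group of AtT-20. Lead probeset 5582221 stood between 9.51 and 10.52 on the 7 AtT-20 arrays.

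Greb1, a target of the oestrogen receptor in human breast cells, had the most probesets. Its lead 4692319 in 3134 stood at 3.27 and 3.88 at 0 h, at 6.46 and 6.71 at 2 h, at 7.19 and 7.54 at 4 h, and at 7.18 and 6.87 at 8 h. The treated arrays did not overlap the 0 h arrays, and the mean change was 3.42, which was 2.04 above the median probeset. The change was shared widely, since 38 of 39 probesets had a mean change above 0 and 22 were higher at 1 or more of the times. The median probeset stood at 4.72 ± 0.08 at 0 h, 5.61 ± 0.06 at 2 h, 6.40 ± 0.04 at 4 h and 6.30 ± 0.03 at 8 h (SD, n = 2 each). In AtT-20 it stood between 4.49 and 4.82 over the group means. Only 17 of the 39 probesets reached the bright level in any group, and the gene as a whole did not. Probeset 4850117, singled out after its values were seen, stood between 10.01 and 11.24 on all 15 arrays.

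Prr15l encodes a small protein of the proline rich 15 family and is annotated on the arrays as Atad4. Lead 5115569 in 3134 stood at 4.78 and 4.90 at 0 h, at 7.17 and 7.26 at 2 h, at 8.63 and 8.31 at 4 h, and at 8.60 and 8.71 at 8 h. Runs lay close together at each time, and the mean change was 3.28, which was 1.63 above the median probeset. The other 5 probesets had mean changes above 0 too, and 4397031 was 1.55 below the median probeset, with levels between 6.84 and 8.04 in 3134. In AtT-20 the lead stood at 6.37 and 6.36 at 0 h, at 7.26 and 7.18 at 2 h, at 7.67 and 7.38 at 4 h and at 7.48 at 8 h, so all 5 treated arrays were above both 0 h arrays, with a mean change of 1.04.

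Selenbp1 and Selenbp2 encode closely related proteins first known for binding selenium, and mammalian SELENBP1 is a methanethiol oxidase. The 250 bases before the annotated starts of both genes are shown because probesets assigned to each rose and the genes are near copies. Whether the rise in probesets of Selenbp2 came from Selenbp2 itself or from Selenbp1 was not tested. The windows are chr3:94932833-94933082 for Selenbp1 and chr3:94693323-94693572 for Selenbp2, plus strand, from RefSeq on GRCm38.p6, and capitals mark bases that differ from the other window or have no partner in it.
Selenbp1: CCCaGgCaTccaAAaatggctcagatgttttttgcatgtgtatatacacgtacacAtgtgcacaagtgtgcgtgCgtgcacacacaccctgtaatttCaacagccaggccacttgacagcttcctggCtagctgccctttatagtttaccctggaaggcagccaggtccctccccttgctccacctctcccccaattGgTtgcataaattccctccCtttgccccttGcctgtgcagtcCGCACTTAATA
Selenbp2: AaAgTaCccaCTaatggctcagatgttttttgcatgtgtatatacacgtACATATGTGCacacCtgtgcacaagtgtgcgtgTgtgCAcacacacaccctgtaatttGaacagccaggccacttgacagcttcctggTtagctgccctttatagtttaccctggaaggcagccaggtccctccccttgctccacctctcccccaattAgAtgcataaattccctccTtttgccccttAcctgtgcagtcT
Of 238 aligned places, 223 held the same base (93.7%). The full glucocorticoid response element, taken as TGTTCT and its reverse complement AGAACA in inverted repeat with any 3 bases between, was in neither window on either strand and was in 3 of 32851 promoter windows (0.00913%). Its part TGTTCT alone, present on either strand in 16.1% of windows, was in neither. TATAAA, present on either strand in 12.4%, was found 1 time in each, as its reverse complement TTTATA on the strand shown.

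The lead of Selenbp1, 5100597, in 3134 stood at 3.03 and 2.84 at 0 h, at 6.90 and 5.28 at 2 h, at 7.75 and 7.68 at 4 h, and at 9.55 and 8.54 at 8 h. The 8 h arrays were the highest and did not overlap the earlier times, and the mean change was 4.68, which was 2.81 above the median probeset. Probeset 4867369 changed least, with a mean change of 0.51 and levels between 6.06 and 7.13. The lead of Selenbp2, 4363538, stood at 6.66 and 6.27 at 0 h, at 7.28 and 7.10 at 2 h, at 8.999 and 8.58 at 4 h, and at 10.19 and 9.96 at 8 h. Its groups did not overlap, and its mean change of 2.22 was 1.60 above the median probeset.

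In Selenbp2 the higher probesets at 4 and 8 h were the lead, 4783783 and 4360043. Probeset 4783783 was 1.44 above the median probeset over the 3 times, close behind the lead, while 4360043 was 0.31 above it, with changes of 1.24 at 4 h and 1.08 at 8 h. The mean changes of all 6 ran from 0.02 to 2.22. The lead of Selenbp2 and probeset 4534557 of Selenbp1 followed each other over the 15 arrays (r = 0.976, a description only, since both were read on the same arrays). Near copies can bind the same probes, and probe sequences were not used here, so the 2 genes were not told apart in these probesets.

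**Figure D4:**
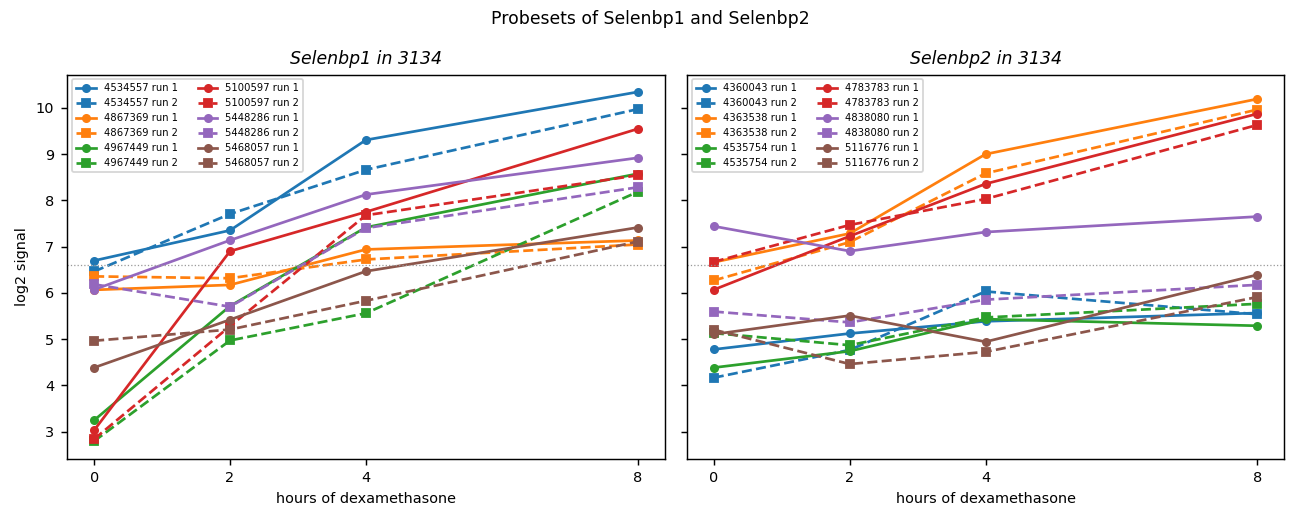
Log2 signal of every probeset of Selenbp1 (left) and Selenbp2 (right) in 3134 against hours of dexamethasone, run 1 solid and run 2 dashed, with the bright level of 6.59 dotted. Probesets 4363538 and 4783783 of Selenbp2 reach 9.63 to 10.19 at 8 h, while its other probesets end between 5.29 and 7.65.

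In AtT-20 the 2 runs differed for these genes. Selenbp1 had a median level of 7.06 ± 0.97 at 0 h (SD, n = 2), and the lead of Selenbp2 stood at 9.05 in run 1 and at 7.14 in run 2. The 8 h array belonged to run 1, so its change was also taken within that run, where it was 0.31 for the lead of Selenbp2 and 0.69 for the lead of Selenbp1, against 1.26 and 1.21 relative to the mean of both 0 h arrays. The part of the run in the AtT-20 changes was not tested further.

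Pih1d1 encodes a subunit of the R2TP complex, which works with the chaperone HSP90 in assembling other complexes. Lead 4659914 in 3134 stood at 4.39 and 4.69 at 0 h, at 6.08 and 7.11 at 2 h, at 7.03 and 6.47 at 4 h, and at 6.87 and 7.76 at 8 h. All treated arrays were above both 0 h arrays, and the mean change was 2.34, which was 2.48 above the median probeset in run 1 and 2.50 in run 2. The next probeset in distance was 0.29 below the median probeset, and the gene's median level stayed between 7.85 and 8.12 over the groups of 3134. In AtT-20 the lead stood between 4.59 and 6.9997, with treated and 0 h arrays overlapping. Pih1d1 overlaps Aldh16a1 in the RefSeq annotation, and the 24 probesets of Aldh16a1 had a median mean change of 0.05 ± 0.17 (SE) in 3134.

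Mapk9 encodes JNK2, a stress-activated kinase. Its lead was 5252115 in AtT-20, which stood at 5.42 and 1.80 at 0 h, at 6.94 and 6.08 at 2 h, at 6.67 and 6.78 at 4 h, and at 5.88 at 8 h. The treated arrays did not overlap the 0 h arrays, but the 0 h arrays lay far apart (SD 2.56, n = 2). The change above the median probeset was 1.11 within run 1 and 4.49 within run 2, and without the 0 h array of run 2 it was 1.00. In 3134 the probeset stood between 4.12 and 6.05, with no order between treated and 0 h arrays. The other 18 probesets were bright in both lines at 0 h and none was higher or lower at any time in either line, and the gene's median level stayed between 9.38 and 9.69 over all groups.

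The lines were compared at 0 h with limma. These arrays also entered the changes that chose the genes. This bears on probesets whose 0 h signals were low in the line where they changed. Among them were 5582221 and 4492128 of Abhd6, 5100597 and 4967449 of Selenbp1, and 5252115 of Mapk9. At the level of the gene, 3 of the 6 genes bright enough to test were higher in AtT-20 and 0 lower, where 30.2% of all 9927 genes were higher and 24.3% lower. Abhd6 reached the bright level only in AtT-20, and Selenbp2 only on the single 8 h array of AtT-20, so the filter admitted them through that line. In 3134 the median probesets of Abhd6, Selenbp1 and Prr15l rose from these 0 h arrays by 1.40, 1.88 and 1.64 over the 3 times. The low 0 h levels in 3134 enter both these changes and the differences between the lines. The gene-level p-values below are therefore not separate from the choice of the genes. Abhd6 was higher by 4.15 ± 0.22 (SE, adjusted p = 1.04e-08, and 3.88e-08 with no filter on dim values), Selenbp1 by 1.66 ± 0.45 (adjusted p = 0.00748) and Prr15l by 0.96 ± 0.24 (adjusted p = 0.00473). The call of Selenbp1 was lost without AtT-20 0 h replicate 1 (0.98, adjusted p = 0.0932) and without 3134 0 h replicate 1 (1.49, adjusted p = 0.0506), and on the deposited scale the calls of Selenbp1 and Prr15l were lost (adjusted p = 0.0859 and 0.514). Selenbp2 missed the threshold at 0.86 ± 0.48 (adjusted p = 0.151) and passed it with run as a block (adjusted p = 0.00778). At 0 h Selenbp2 was below the bright level in both lines (5.49 in 3134 and 6.35 in AtT-20), so its difference is one between dim signals. For Mapk9 the difference was -0.24 ± 0.17 (adjusted p = 0.237) and for Pih1d1 0.04 ± 0.17 (adjusted p = 0.871). Of 72 bright probesets, 16 were higher in AtT-20 and 2 lower, against 17.9% and 17.5% of all tested. Some of the 16, such as 4905392 and 5586322 of Abhd6, were below the bright level on every 3134 array. The filter admitted these through AtT-20. Abhd6 held 10 of the 16, Selenbp1 4, and Prr15l and Selenbp2 1 each, so the count is a description in which 1 gene weighs most. Another 3 more passed with run as a block, which were 5448286 of Selenbp1, 4363538 of Selenbp2 and 5581460 of Mapk9.

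Whether single probesets differed from the rest of their gene between the untreated lines was tested with limma's diffSplice, which called 3 of 72 higher and 5 lower, against 3.47% and 3.61% of all 144410. That test gives all probesets of a gene the same variance, and on simulated data with the spread of these arrays it made false calls. A second limma test with a separate variance for each probeset, added after seeing this, called 4 higher and 4 lower, against 3.57% and 3.43%. Of the 6 probesets called by both, 4 lay in Abhd6 and 2 in Selenbp1, and 2 of the 6 are leads. With run as a block diffSplice called 5 higher and 6 lower, and the second test called 6 higher and 7 lower. The block added to the diffSplice calls 4838080 of Selenbp2 (adjusted p = 0.0202 by diffSplice), 5115569 of Prr15l and 4967449 of Selenbp1. The last 2 are given without a p. Their 0 h signals in 3134 were low (4.78 and 4.90 for 5115569, 3.25 and 2.79 for 4967449) and they rose there.

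**Figure D5:**
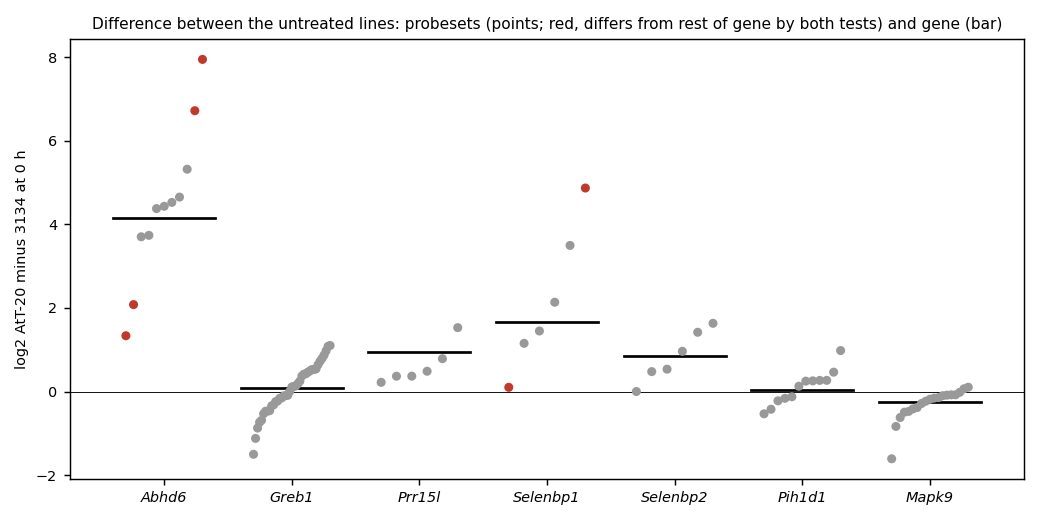
Log2 difference of AtT-20 minus 3134 at 0 h for every probeset (points, in rising order within a gene) and for the gene's median (bars). Red points are the 6 probesets that differed from the rest of their gene by both tests, 4 in Abhd6 and 2 in Selenbp1.

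In Abhd6, 4492128 was 2.51 above the other probesets of the gene. It is given without a p, since its 0 h signals in 3134 were low (2.66 and 3.36) and it rose there. On the other side, 5344866 lay at -3.42 (adjusted p = 7.51e-06 by diffSplice and 0.0175 with its own variance in limma) and 4877327 at -2.60 (0.000916 and 0.00318). In Selenbp1, 4867369 lay at -2.52 (0.0137 and 0.0213). Relative to their gene's median probeset, 5344866, 4877327 and 4867369 changed by -1.07, -0.81 and -1.365 in 3134. Their p-values are therefore not separate from the choice of the genes. At 0 h 4867369 was below the bright level in both lines (6.06 and 6.36 in 3134, 6.40 and 6.22 in AtT-20). In 3134 at 0 h, 0 of 6 Selenbp1 probesets and 1 of 11 Abhd6 probesets were bright. The background of single probesets may therefore enter these exon-use values, which was not tested. The leads 5582221 of Abhd6 and 5100597 of Selenbp1 lay 3.86 and 3.20 above the rest of their genes. The low 0 h signals in 3134 that made them leads also make this difference, so it is given without a p. By diffSplice 5344866 passed without any single 0 h array, while 4492128, 4877327 and 4867369 each lost the call without at least 1 of these arrays. On the deposited scale these 3 lost the call as well (adjusted p = 0.0619 for 4877327 and 0.557 for 4867369 by diffSplice).

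The diffSplice calls of 5252115 in Mapk9 and 4610286 in Greb1 did not pass with their own variance in limma (adjusted p = 0.563 and 0.0828). With run as a block 4610286, at -1.64, passed both tests (adjusted p = 0.00153 by diffSplice and 0.0291 with its own variance in limma), so its call depends on the block. Probeset 5252115 did not pass the second test with the block either (adjusted p = 0.418 by limma).

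The times after hormone were compared with each other without the 0 h arrays. These treated arrays also entered the changes that chose the genes. Some dim probesets, such as 4692319 of Greb1, passed the filter only through treated groups. Probesets of a gene are not separate members either. The counts, shares and p-values below are therefore not separate from the choice of the genes. Between 8 h and 2 h in 3134, limma called 0 of 72 probesets higher and 0 lower, against 0.0% and 0.000676% of all tested, with 18 of 72 (25.0%) at an unadjusted p under 0.05 against 4.52% of all probesets. At the level of the gene Selenbp1 differed by 2.48 ± 0.45 (8 h minus 2 h, SE, adjusted p = 0.0666, and 0.00535 with run as a block) and Prr15l 0.82 ± 0.24 (adjusted p = 0.316, and 0.0426 with the block). Selenbp2 differed by 0.87 ± 0.48 (adjusted p = 0.747) and Abhd6 by 0.01 ± 0.22 (adjusted p = 0.999). Between 4 h and 2 h in AtT-20 limma called 0 of 72 and 0.0% of all probesets in each direction, with 2 of 72 (2.78%) at an unadjusted p under 0.05 against 1.62% of all probesets.

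Genes of the pathways around the members, together with a list of steroid receptors and known steroid hormone targets, were tested over the mean of the 3 times. Without the block, all calls but Selenop came from the list of hormone targets and receptors, which holds genes known to answer glucocorticoids. In 3134, 4 of the 46 tested were higher and 1 lower by limma, against 1.79% and 0.635% of all genes. Fkbp5, a chaperone of steroid receptors, rose by 2.84 ± 0.13 (SE, adjusted p = 2.80e-07), the clock gene Per1 by 2.49 ± 0.14 (adjusted p = 2.07e-06) and Tsc22d3, also called GILZ, by 2.73 ± 0.27 (adjusted p = 0.000159). Selenop, the selenium carrier of plasma, rose by 1.40 ± 0.21 (adjusted p = 0.00324), a call lost without 3134 0 h replicate 1 (1.26, adjusted p = 0.0929) and on the deposited scale (adjusted p = 0.999). The gene called lower, named after its value was seen, was Nr3c1, which encodes the glucocorticoid receptor and fell by 0.69 ± 0.14 (adjusted p = 0.0181). With run as a block the counts were 5 higher and 3 lower, which added Gpx3, Txnrd1 and Nop58. Gpx3 was below the bright level in every group of 3134 (4.56 at 0 h to 5.37 at 8 h). The filter admitted Gpx3 through AtT-20, so its call in 3134 is a change among dim signals. Selenop also started from a dim signal in 3134 (5.51 at 0 h). In AtT-20, 2 were higher and 0 lower, against 0.191% and 0.0101%, and these were Per1 with 1.33 ± 0.15 (adjusted p = 0.00201) and Fkbp5 with 0.95 ± 0.13 (adjusted p = 0.00782). Both calls were lost without AtT-20 0 h replicate 2 (adjusted p = 0.0785 and 0.200) and on the deposited scale. None of the 9 tested genes of R2TP and its partners, the 13 of the JNK pathway or the 6 endocannabinoid lipases and receptors passed in either line without the block, with list medians in 3134 of 0.01, -0.13 and 0.01 against -0.02 over all genes. With the block Nop58 of the R2TP partners passed in 3134 (-0.46, adjusted p = 0.0481 by limma). Of 13 genes of selenium metabolism, Selenop passed in 3134 without the block.

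The genes with the profile most like each lead, by Pearson's r over the 8 arrays of 3134, were Stat2 (0.991), Fkbp5 (0.982) and Sorbs3 (0.981) for Abhd6. For Greb1 they were Fst, Col4a2 and Fkbp5 (0.987 to 0.988), and for Prr15l Glul, Ccn2 and Map3k6 (0.991 to 0.992). For Selenbp1 they were Ercc1, Tns1 and Vdr (0.977 to 0.980), and for Selenbp2 Hbp1, Aldh1a1 and Angptl7 (0.980 to 0.987). For Pih1d1 they were Hacd2, Perp and Tsc22d4 (0.963 to 0.980). Over the 7 arrays of AtT-20, those of Mapk9 were Ccdc93, Tob2 and Ptpn1 (0.972 to 0.975). These are descriptions picked from all genes over few arrays.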

How the data were processed

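The authors deposited 1 log2 value per probeset and array. The submitters' processing notes name RMA and Affymetrix Expression Console, with no version. Of 228090 probesets, 207232 had 1 gene symbol and were used. Deposited array medians ran from 6.76 to 8.14, so the 15 arrays were quantile normalized, although the planned tests had taken the columns to be normalized already. Probesets and genes (median of at least 3 probesets) were tested where the highest group mean reached the 40th percentile, log2 6.59. Group means were fitted with limma 3.58.1 in R 4.3.3 (lmFit, eBayes, diffSplice; 2-sided; Benjamini-Hochberg, threshold 0.05) over all probesets or genes. Members, lists and tests were chosen with earlier results of these data known. All members and their probesets were named, with lead probesets by distance from the gene's median probeset, the 3 most similar genes, and up to 3 called genes of each related list.

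Run numbers were taken from serial numbers in the titles. Same-numbered arrays deviated together (r from 0.492 to 0.590 within a line and 0.277 to 0.391 between lines), so runs pair the arrays, and the fit with run as a block is given where it changes a call. The tests were checked on simulated data. limma's probeset test behaved as it should there, but diffSplice made false calls when the probesets kept their measured spread. A limma test on each probeset minus the mean of its gene's other tested probesets was therefore added. Which probesets drew the false calls was not examined, and the simulated noise was independent between arrays, without a run effect. Exon and probe positions were not used here.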

Additional observations from a re-analysis of the deposited data

How the results depend on the processing

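On the values as deposited the calls fell to 11 probesets and 1 gene between the lines, 2 probesets in exon use, and 3 related genes in 3134 and 0 in AtT-20. With the replicate block 8 related genes were called in 3134, and exon use with each probeset's own variance and the replicate block gave 13. The block changed no other call of a member gene or probeset than those given above. A filter at the 60th percentile left 3 exon-use calls. Leaving out 1 array at a time gave 4 to 7 exon-use calls (5 without 3134 0 h replicate 1, 4 without 3134 0 h replicate 2, 5 without AtT-20 0 h replicate 2) and 0 to 2 related genes in AtT-20, where the 0 came without AtT-20 0 h replicate 2. Pih1d1, not called in any fit, changed sign between the lines to -0.30 as deposited, -0.036 with arrays centred on their medians and -0.064 without 3134 0 h replicate 2, with a highest value of 0.139 without 3134 0 h replicate 1. The exon-use value of 5252115 in Mapk9 ran from -3.14 without AtT-20 0 h replicate 1 to 0.41 without AtT-20 0 h replicate 2. The cause of these shifts was not tested. No lead probeset's distance from its gene's median changed sign under any alternative run for it. Leads were chosen by this distance on the same arrays, so a kept sign says little. In 18 of these alternatives the distance shifted by at least the SD between the 2 runs, and in 72 by less. For the lead of Mapk9 in AtT-20 the distance ran from 1.00 to 4.36 with 1 array left out. Dim signals, under log2 6.59, limit the precision of the changes of Abhd6, Greb1, Selenbp1 and Selenbp2 in 3134 and of the leads of Prr15l and Pih1d1 in 3134 and Mapk9 in AtT-20, which start at 4.84, 4.54 and 3.61.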
